A study of Mus musculus with 6 samples.

Results

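*Nlrp3* and 9 genes that work with it in the inflammasome and the interleukin 1 family were followed in cultured plasmacytoid dendritic cells (pDCs), the type I interferon-producing cells of the blood. The 10 genes are *Nlrp3*, *Pycard*, *Casp1*, *Casp4*, *Aim2*, *Nlrc4*, *Il1a*, *Il1b*, *Il1rn* and *Il18*, out of 19937 genes that the array's annotation names singly. Each of the 10 has 1 probe set. *Nlrp3* was selected on its measured intensity on these 6 arrays, which was lower after tamoxifen in all 3 mice, so its own difference is given as a description with no test. The other 9, called partners here, were taken for their function, and the question was whether they follow *Nlrp3*.

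The pDCs came from bone marrow of 3 C57BL/6 mice that carried *Gfi1*f/f; *Gfi1b*f/f; ERCre, that is, floxed alleles of 2 zinc finger repressors and a Cre recombinase that tamoxifen switches on. The marrow of every mouse was grown with 25 ng/ml Flt-3L, a growth factor for dendritic cells, and divided into a culture left untreated (WT) and a culture given 1 µM tamoxifen (KO). B220+ CD11c+ cells were sorted from each culture and 200 ng of total RNA was put on an Affymetrix Mouse Gene 1.0 ST array, giving 3 WT and 3 KO arrays. Both groups carry the same floxed alleles and the Cre. No treated culture without floxed alleles was analysed here, so loss of GFI proteins and other effects of tamoxifen or active Cre cannot be told apart. The study's genotyping described the deletion in such cultures as inefficient, and ages of the mice are not given in the sources used here.

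An inflammasome is a protein scaffold that senses infection or damage inside the cell. Sensors such as NLRP3, AIM2 and NLRC4 recruit, mostly through the adaptor ASC (the product of *Pycard*), the protease caspase-1, which cuts the precursors of interleukin 1 beta and interleukin 18 into their active forms. Caspase-11, the product of mouse *Casp4*, senses bacterial lipopolysaccharide in the cytosol. Interleukin 1 alpha needs no caspase-1, and the product of *Il1rn* blocks the receptor that both interleukin 1 cytokines share. Macrophages, monocytes and neutrophils are known as the main sources of these cytokines, while pDCs are known above all for interferon. In macrophages, transcription of *Nlrp3* and *Il1b* is raised by NF-κB after Toll-like receptor signals.

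The arrays carried the pDC markers, but also markers of other cells. Of 14 measured pDC markers, all 14 had intensities above 61.9 on every array. This level is the 95th percentile of intensities of 1204 olfactory and vomeronasal receptor probe sets on the 6 arrays. Those genes are not expected in blood cells. *Siglech*, a surface lectin of pDCs, had intensities of 6917, 3900 and 2721 on the WT arrays of mice 1, 2 and 3 and of 6439, 4795 and 4169 on the KO arrays. The summed intensity of the 14 monocyte and macrophage markers was 9689 to 36482 in WT and 8193 to 31801 in KO cultures, and 13 of them were above the receptor level on every array. *Lyz2*, the lysozyme of myeloid cells, had 2012, 9943 and 10496 on the WT arrays of mice 1, 2 and 3. Mouse 1 stood apart: its 2 arrays had the highest pDC sums (50698 and 48769, against 22506 to 34939 on the other 4) and the lowest macrophage sums. The differences of the 10 genes, and of the lists and listed genes where they shifted most, are therefore also given without both arrays of mouse 1.

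The bases just upstream of 4 of the genes are shown because GFI1 and GFI1B bind DNA at the core AATC, and because these genes form a contrast: *Nlrp3* and *Il1b*, the gene of a cytokine that its inflammasome matures, were lower in the KO culture of all 3 mice, while the protease gene *Casp1* and the adaptor gene *Pycard* were not. *Nlrp3* was selected for that drop, and the contrast was formed from these same values. Of all probe sets, 17.4% were lower in all 3 mice. *Il1a*, also lower in all 3 mice, is not shown. Capitals mark each AATC, read on either strand (AATC or GATT). The sequences are from RefSeq for GRCm38.p6, written 5′ to 3′ on the strand of the gene, and end at the base before the annotated gene. The stretch of *Il1b* has 225 bases, since the start that RefSeq's promoter window uses lies inside the annotated span of that gene, and the others have 250.
*Nlrp3*, chr11:59541319-59541568, plus strand: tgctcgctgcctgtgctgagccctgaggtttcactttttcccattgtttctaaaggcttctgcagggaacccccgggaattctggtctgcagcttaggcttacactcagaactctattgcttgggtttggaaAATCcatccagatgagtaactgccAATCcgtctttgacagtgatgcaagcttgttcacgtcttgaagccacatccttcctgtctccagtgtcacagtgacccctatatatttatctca
*Il1b*, chr2:129371165-129371389, minus strand: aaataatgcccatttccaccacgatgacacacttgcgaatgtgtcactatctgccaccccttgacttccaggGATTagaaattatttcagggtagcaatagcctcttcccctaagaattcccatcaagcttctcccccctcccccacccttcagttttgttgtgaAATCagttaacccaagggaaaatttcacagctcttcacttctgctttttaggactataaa
*Casp1*, chr9:5298267-5298516, plus strand: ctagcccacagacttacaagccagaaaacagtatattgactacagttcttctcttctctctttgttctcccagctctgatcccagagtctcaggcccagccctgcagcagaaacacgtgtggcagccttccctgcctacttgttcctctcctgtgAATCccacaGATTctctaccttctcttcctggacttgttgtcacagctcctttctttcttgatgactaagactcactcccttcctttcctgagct
*Pycard*, chr7:127993868-127994117, minus strand: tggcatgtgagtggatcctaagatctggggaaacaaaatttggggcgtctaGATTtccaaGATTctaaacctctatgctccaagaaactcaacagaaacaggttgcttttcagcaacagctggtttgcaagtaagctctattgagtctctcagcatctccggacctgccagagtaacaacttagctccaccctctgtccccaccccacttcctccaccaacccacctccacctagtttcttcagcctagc
Every one of these 4 stretches held 2 matches to the core. All 10 genes had at least 1 match in the 250 bases before their outermost start, from 1 in *Casp4*, *Nlrc4* and *Il1rn* to 4 in *Il1a*. Of 27025 promoters of the same length, 69.8% held the core, so its presence did not set these genes apart, and *Casp1* and *Pycard* had as many matches as *Nlrp3*. The NF-κB motif, searched on either strand as GGGA and CC with any 4 bases between them, was found once each in *Nlrp3*, *Casp4* and *Il1rn* and in 17.4% of all promoters. The match in *Casp4* overlaps its only AATC match. A TATA box, searched as TATAAA on the strand of the gene, was found in *Il1a* and *Il1b* and in 8.13% of all promoters. The AP-1 motif TGANTCA, which reads the same on both strands, was found in *Il1a* and *Il1rn* (6.85% of all), and the C/EBP motif TTGCNNAA, on either strand, in *Pycard* and *Nlrc4* (9.55% of all). A match to these letters is a description of the sequence and was not linked to binding in these cells.

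*Nlrp3*, the sensor of membrane damage and ion loss, had intensities of 132, 139 and 161 on the WT arrays of mice 1, 2 and 3 and of 92.2, 80.3 and 77.1 on the KO arrays. All 3 KO values lie below all 3 WT values. The log2 difference, KO minus WT, was -0.51, -0.79 and -1.07 in mice 1, 2 and 3, with a mean of -0.79 ± 0.28 (SD, n = 3 mice), so that the KO level was 0.579 times the WT level. Of all 21640 probe sets with a single gene name, 0.55% had a mean difference as low or lower, and 4.65% had every KO array below every WT array. These values chose the gene and support nothing further. Without mouse 1 the mean was -0.93. In RNA of a sorted population, fewer cells that carry a transcript and less transcript per cell cannot be told apart.

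**Figure D1:**
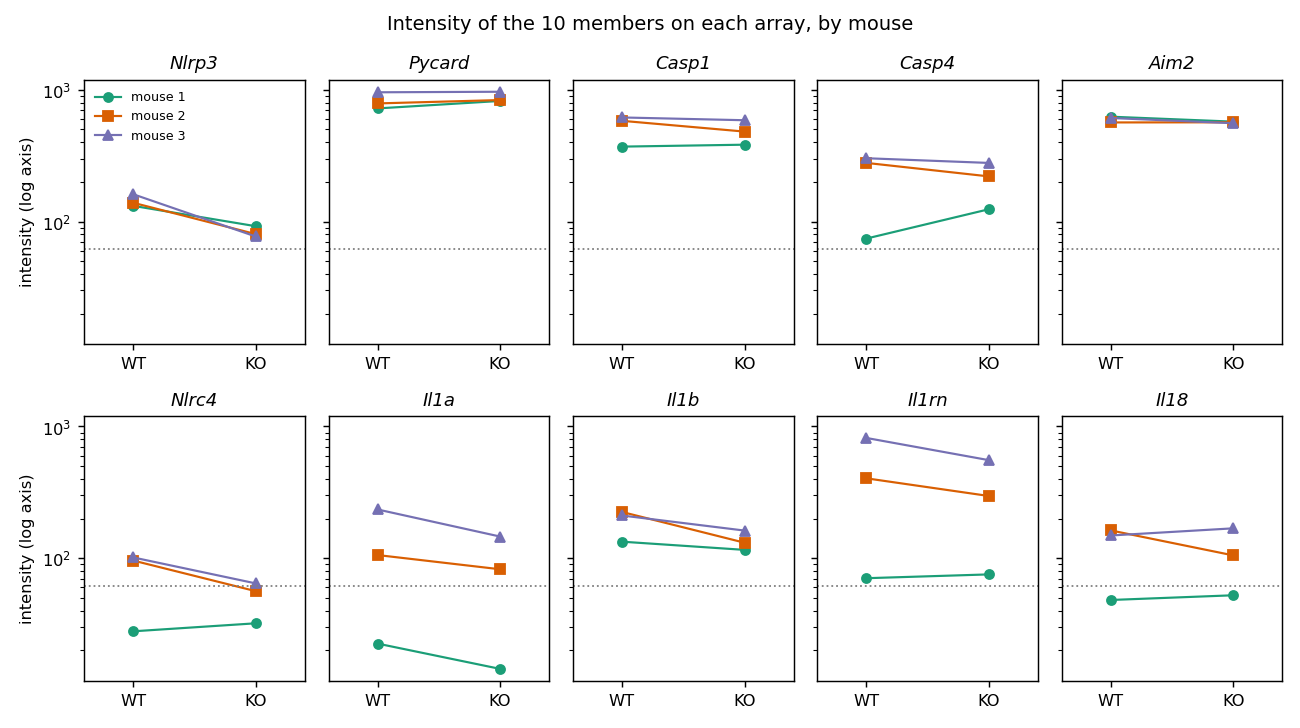
Intensity on a log axis of each of the 10 genes in the WT and KO culture of mice 1, 2 and 3, with 1 point per array and a line joining the 2 cultures of a mouse. The dotted line marks the receptor level of 61.9, *Nlrp3* is low in KO in every mouse, from 132 to 92.2 in mouse 1 and from 161 to 77.1 in mouse 3, while *Nlrc4*, *Il1a*, *Il1rn*, *Il18* and *Casp4* lie lowest in mouse 1 in either culture.

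None of the 9 partners passed an adjusted p of 0.05 in limma, a test run over all 21640 probe sets in which 0.0% passed (smallest adjusted p of a partner 0.718). This fit did not pair the cultures by mouse, so its standard errors include the level differences between mice. At an unadjusted p under 0.05 none of the 9 was called either, where 1.9% of all probe sets were called lower in KO and 5.14% higher. Of the 9, 2 were lower in the KO culture of all 3 mice (*Il1a* and *Il1b*), against 17.4% of all probe sets, and 1 was higher (*Pycard*), against 21.3%. No partner had all KO arrays below the WT arrays (4.65% of all probe sets) or all above them (10.2%). The median log2 difference of the 9 was -0.11, against 0.028 over all probe sets, and it was 0.10, -0.36 and -0.13 in mice 1, 2 and 3. It was -0.23 without mouse 1. With single arrays left out it was 0.14 (WT, mouse 3), 0.14 (KO, mouse 1), -0.67 (WT, mouse 1), -0.51 (KO, mouse 3), -0.053 (WT, mouse 2) and -0.16 (KO, mouse 2), since leaving out 1 array of a pair lets levels that differ between mice into the difference.

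**Figure D2:**
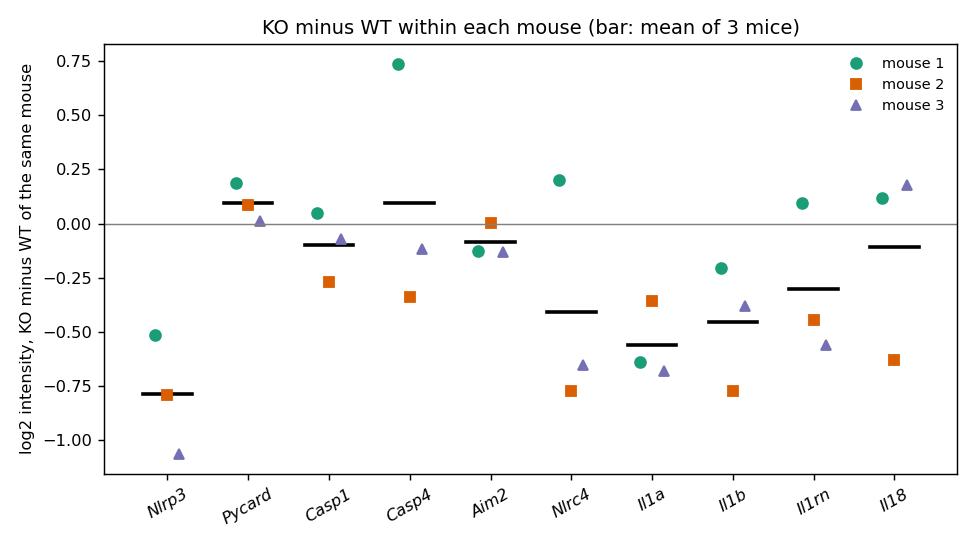
Log2 intensity, KO minus WT of the same mouse, for the 10 genes, with 1 symbol per mouse and a bar at the mean of 3 mice. *Nlrp3*, *Il1a* and *Il1b* are below 0 in all 3 mice, *Pycard* is above 0 in all 3, and *Casp4*, *Nlrc4*, *Casp1* and *Il1rn* are above 0 in mouse 1 and below 0 in mice 2 and 3.

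The core machinery downstream of the sensor showed small differences. *Pycard*, the adaptor that links sensors to caspase-1, had 722, 788 and 957 in the WT and 823, 836 and 966 in the KO cultures of mice 1, 2 and 3. The difference was 0.095 on the log2 scale (standard error 0.14, adjusted p = 0.886 from limma), and 0.049 without mouse 1. The KO value was the higher one in each mouse, and the groups overlap. *Casp1*, the protease itself, had 370, 582 and 617 in WT and 383, 482 and 587 in KO cultures. Its difference was -0.098 (standard error 0.25, adjusted p = 0.940 from limma), and -0.17 without mouse 1. The KO values lie within the range of the WT values.

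*Casp4*, whose gene lies beside *Casp1* on chromosome 9, differed in direction between the mice. It had 74.3, 279 and 302 in the WT and 124, 220 and 279 in the KO cultures of mice 1, 2 and 3. The within-mouse difference was 0.74 in mouse 1 but -0.34 and -0.12 in mice 2 and 3, with a mean of 0.094 (standard error 0.59, adjusted p = 0.980 from limma). The sign of the mean rests on mouse 1 and was -0.23 without it. Of the 9 partners, 4 were higher in KO in mouse 1 and lower in mice 2 and 3 (*Casp1*, *Casp4*, *Nlrc4* and *Il1rn*), a pattern seen in 11.4% of all probe sets.

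The other 2 sensors differed from each other. *Aim2*, which binds DNA in the cytosol, was the steadiest of the 10, with 625, 565 and 611 in WT and 573, 567 and 558 in KO cultures of mice 1, 2 and 3. The KO values of mice 1 and 3 were below their WT values, and the groups overlap. The difference was -0.084 (standard error 0.087, adjusted p = 0.836 from limma), and -0.064 without mouse 1. *Nlrc4*, which detects flagellin and secretion system proteins through its NAIP partners, had 27.9, 96.1 and 101 in WT and 32.1, 56.3 and 64.5 in KO cultures. It was 0.20 higher in mouse 1, where both values lie below the receptor level of 61.9, and differed by -0.77 and -0.65 in mice 2 and 3. The mean difference was -0.41 (standard error 0.55, adjusted p = 0.875 from limma). Without mouse 1 it was -0.71, with an adjusted p of 0.095 in the limma fit of the 4 remaining arrays, in which 0.499% of all probe sets passed.

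Of the 2 interleukin 1 cytokines, *Il1b* was the partner nearest to *Nlrp3* by levels over all arrays, each gene centered on its own mean. It had 134, 225 and 211 in WT and 116, 131 and 162 in KO cultures of mice 1, 2 and 3. The KO value was the lower one in each mouse, with differences of -0.21, -0.77 and -0.38, but the KO value of mouse 3 exceeded the WT value of mouse 1. The mean difference was -0.45 (standard error 0.23, adjusted p = 0.718 from limma), and -0.58 without mouse 1 (adjusted p = 0.159 from limma). *Il1a*, its neighbor on chromosome 2, had 22.5, 106 and 235 in WT and 14.5, 82.5 and 146 in KO cultures. Its differences were -0.64, -0.36 and -0.68 in mice 1, 2 and 3, while its WT level differed 10.4-fold between the highest and the lowest WT culture. The values of mouse 1 lie below the receptor level in both cultures. The mean difference of *Il1a* was -0.56 (standard error 1.12 without pairing by mouse, adjusted p = 0.921 from limma), and -0.52 without mouse 1. The standard deviation of its 3 within-mouse differences was 0.18. By mean difference *Il1a*, not *Il1b*, was the partner nearest to *Nlrp3* (-0.79).

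With the mouse as a block, which takes out the level of each animal, the standard error of *Il1a* was 0.11 (adjusted p = 0.288 from limma) and that of *Il1b* 0.13 (adjusted p = 0.308). These were the 2 partners with an unadjusted p under 0.05 in that fit, lower in KO, where 5.99% of all probe sets were called lower and 7.46% higher. No probe set of the 21640 passed the adjusted p with the block. In that fit the standard errors of *Nlrc4*, *Il1rn*, *Il18* and *Casp4* were 0.19, 0.15, 0.17 and 0.21. Their adjusted p values from limma were 0.404, 0.408, 0.779 and 0.848. Standard errors given elsewhere are without the block unless stated and include the differences between mice.

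*Il1rn*, which encodes the receptor antagonist that restrains both cytokines, had 70.6, 404 and 818 in WT and 75.4, 297 and 555 in KO cultures of mice 1, 2 and 3. Its differences were 0.096 in mouse 1 and -0.45 and -0.56 in mice 2 and 3, and the groups overlap, with a mean of -0.30 (standard error 1.08, adjusted p = 0.961 from limma). *Il18*, the second substrate of caspase-1, had 48.2, 163 and 149 in WT and 52.4, 105 and 169 in KO cultures. It was lower in KO in mouse 2 alone (-0.63), and the mean turned to 0.15 without mouse 2. With all mice its mean difference was -0.11 (standard error 0.60, adjusted p = 0.977 from limma). Without mouse 1 these 2 genes were at -0.50 and -0.23.

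The mouse of origin went with larger differences than tamoxifen did in most of these genes. In 8 of the 10, mouse 1 had the lowest value of the 3 mice in both WT and KO cultures, against 18.9% of all probe sets. The exceptions were *Nlrp3* and *Aim2*. For *Il1a*, *Il1rn* and *Il18* mouse 1 was at least 2-fold below both other mice in either culture, which held for 2.4% of all probe sets. The geometric mean of mice 2 and 3 was 8.15 times the value of mouse 1 for *Il1rn* in WT and 5.38 times in KO cultures. For *Il1a* it was 7.0 and 7.59 times, for *Casp4* 3.91 and 2.00 times, for *Nlrc4* 3.54 and 1.88 times and for *Il18* 3.23 and 2.54 times. For *Nlrp3* the same ratio was 1.14 in WT and 0.853 in KO cultures. In 2 of the 9 partners (*Il1b* and *Aim2*) the mean difference between KO and WT exceeded the standard deviation of log2 values among the mice of either group. For *Aim2* all of these are small, a difference of -0.084 against standard deviations of 0.076 in WT and 0.020 in KO. This count was not made over all probe sets. The comparisons of mouse 1 with the others rest on 1 animal against 2 and were not tested.

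**Figure D3:**
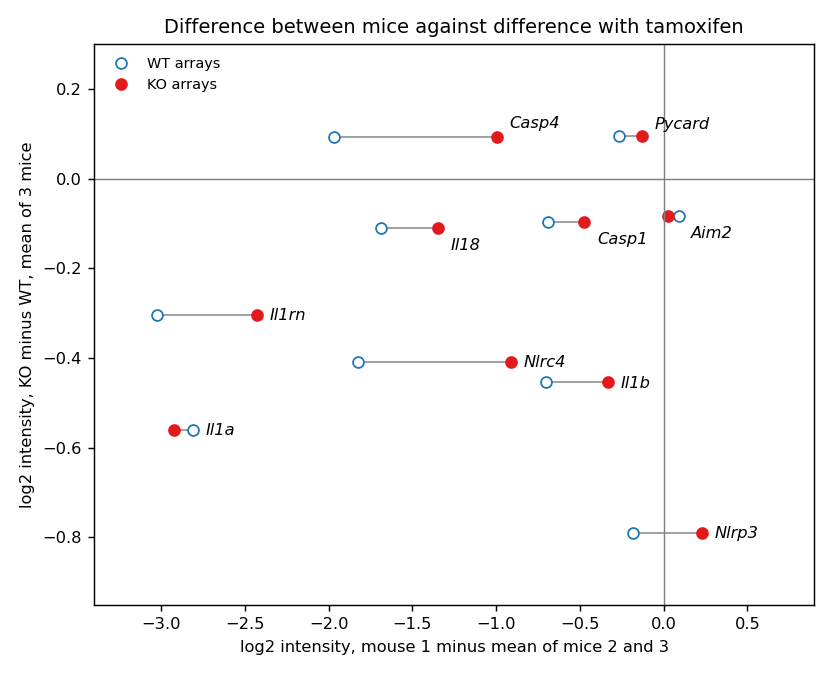
For each of the 10 genes, the horizontal axis gives log2 intensity of mouse 1 minus the mean of mice 2 and 3 (open circles WT arrays, filled circles KO arrays) and the vertical axis the mean log2 difference, KO minus WT. *Nlrp3* lies near 0 between mice (-0.19 in WT, 0.23 in KO) and at -0.79 between treatments, whereas *Il1rn* and *Il1a* lie at -3.03 and -2.81 between the mice in WT.

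The summed markers of myeloid cells differed both between KO and WT and between mice. The summed macrophage markers had 9689, 35122 and 36482 in the WT and 8193, 28713 and 31801 in the KO cultures of mice 1, 2 and 3, so the KO sum was the lower one in each mouse and mouse 1 was lowest in both groups. Of the 14 macrophage markers, 6 were lower in KO in all 3 mice, against 17.4% of all probe sets, with a median of -0.29. Without mouse 1 their median was -0.37 and 0 passed the adjusted p in limma, against 0.499% of all probe sets. *C1qc*, a complement gene of macrophages, had 339, 4033 and 3710 in WT cultures, and *Cd68*, a lysosomal protein of macrophages, had 2793, 4891 and 5341. Of the 14, 12 were lowest in mouse 1 in both groups, against 18.9% of all probe sets. *Ccr2* went the other way and was highest in mouse 1 (2203 in WT, 1675 in KO). The neutrophil markers, led by *S100a9*, *S100a8* and *Mmp8*, summed to 1556, 9810 and 12522 in WT and 751, 3146 and 5580 in KO cultures, with 8 of 13 lower in all 3 mice, against 17.4% of all probe sets, and a median of -1.01. Without mouse 1 the neutrophil median was -1.35 and 5 of the 13 had an adjusted p under 0.05 (limma), where 0.499% of all probe sets did. Of the 13, 4 were above the receptor level of 61.9 on every array. Only 1, *Cxcr2*, the chemokine receptor of mature neutrophils, was below it on all 6 arrays. The stromal markers, led by *Sparc*, *Fn1* and *Lox*, summed to 763 to 12459 in WT and 690 to 4199 in KO cultures. Of the 11, 8 were lower in all 3 mice, against 17.4% of all probe sets, with a median of -0.88. Without mouse 1 their median was -1.38 and 8 had an adjusted p under 0.05 (limma), against 0.499% of all probe sets. The pDC markers, led by *Bst2*, *Siglech* and *Cox6a2*, had a median of 0.29, and of 0.49 without mouse 1, with 6 of 14 higher in all 3 mice, against 21.3% of all probe sets. The conventional dendritic cell markers, led by *H2-Ab1*, *Clec9a* and *Cd209a*, summed to 5802 to 7712 in WT and 6102 to 7822 in KO cultures, with a median of 0.011. Of these 9, 6 were above the receptor level on every array and only 1, *Xcr1*, was below it on all arrays. The part of these cells in the values of *Nlrp3* and its partners was not tested.

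**Figure D4:**
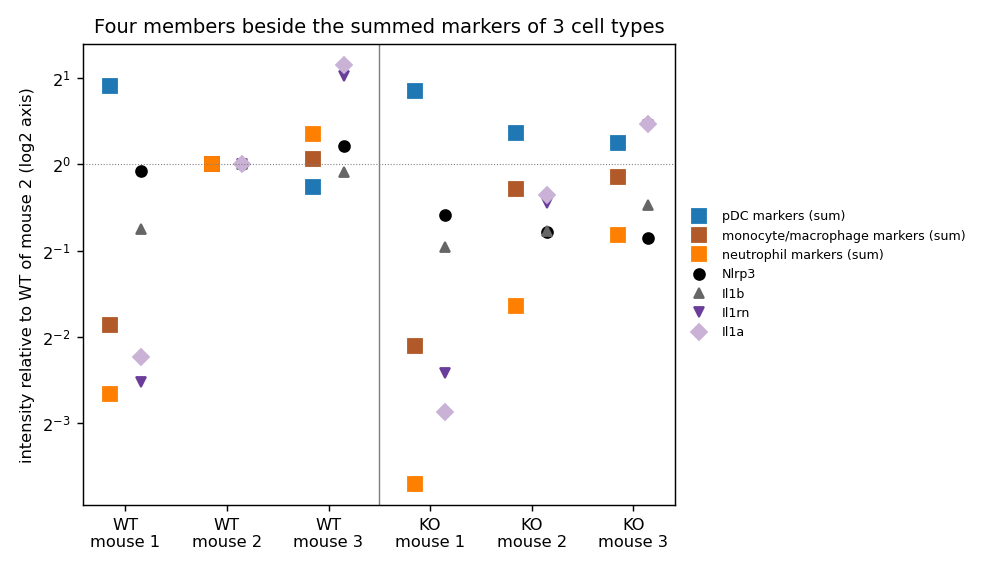
Summed intensity of pDC, macrophage and neutrophil markers (squares) and intensity of *Nlrp3*, *Il1b*, *Il1rn* and *Il1a* on the 6 arrays, each relative to the WT array of mouse 2, on a log2 axis. *Il1rn*, *Il1a* and the macrophage (9689 and 8193) and neutrophil (1556 and 751) sums lie low on both arrays of mouse 1. *Nlrp3* is at 132 on the WT array of mouse 1, close to the 139 of mouse 2, and lower on all 3 KO arrays.

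The genes whose profile was most like that of *Nlrp3* were outside the pathway. Likeness was the root mean square difference of log2 values over the 6 arrays, after each gene was centered on its own mean, over 19936 other genes. The nearest was *Nfxl1*, a zinc finger gene, at 0.12, with 193, 205 and 253 in WT and 133, 127 and 141 in KO cultures of mice 1, 2 and 3. It was followed by *Angptl1*, a secreted angiopoietin-like protein (0.13), *Gclc*, the catalytic subunit of the enzyme that starts glutathione synthesis (0.14), *Spred2*, an inhibitor of MAP kinase signaling (0.14), and *Olfr180*, an olfactory receptor gene (0.15). All 5 had every KO array below every WT array, which follows from choosing them for a profile like that of *Nlrp3* and is no separate result. *Olfr180* had at most 22.7 on any array, within the range of genes not expected in these cells. Of the partners, *Il1b* was nearest, at rank 1205 (0.34), followed by *Aim2* at rank 2719, and *Casp1* and *Pycard* were at ranks 9476 and 9705. *Il1rn* and *Il1a* ranked 19800 and 19810, near the end of the list. The measure compares levels over all arrays and not the differences within a mouse. A gene that varies little, such as *Aim2*, can therefore rank near without following *Nlrp3*. *Il1a* was lower in KO in each mouse, but its levels differ between mice, which places it far.

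Beyond the 10 genes, 50 of 57 listed genes of inflammasome and interleukin 1 signaling were measured with a single gene name. Of these, 0 had an adjusted p under 0.05 in limma, also when the mouse was a block and when mouse 1 was left out. At an unadjusted p under 0.05, 1 was lower in KO (*Casp8*) and 2 were higher (*Il18r1* and *Il1f5*), against 1.9% and 5.14% of all probe sets. With the mouse as a block 7 were lower and 2 higher, against 5.99% and 7.46%. Their median difference was -0.087, and -0.090 without mouse 1, with 17 lower in KO in all 3 mice and 8 higher, against 17.4% and 21.3% of all probe sets. By role, the medians were 0.16 for 7 receptors and decoys, 0.24 for 6 other ligands of the family, -0.0086 for 9 adaptors and kinases, -0.12 for 10 other sensors, -0.22 for 11 regulators and effectors and -0.014 for 7 genes of NF-κB and its targets. Without mouse 1 the medians of the receptors and of the NF-κB genes were -0.079 and -0.19.

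Among the receptors, *Il18r1*, a chain of the interleukin 18 receptor, had 27.6, 41.7 and 51.5 in WT and 50.8, 58.8 and 72.2 in KO cultures of mice 1, 2 and 3, a difference of 0.62 (standard error 0.25, adjusted p = 0.702 from limma), and of 0.49 without mouse 1. With the mouse as a block its standard error was 0.12 (adjusted p = 0.288 from limma). Of its 6 values 5 lie below the receptor level of 61.9. *Il1rl2*, the receptor of the interleukin 36 cytokines, was at -0.67 (standard error 0.40), with -1.44 in mouse 3, and at -0.88 without mouse 1. Only its WT value of mouse 3, 123, lies above the receptor level. The ligands were dim: all 6 had every array below 61.9, among them *Il1f5* at 0.31 (standard error 0.10) and *Il1f9* at -0.14 (standard error 0.22), the interleukin 36 receptor antagonist and interleukin 36 gamma. Of the signaling genes, *Tab2* and *Tab1*, which bind the kinase TAK1, were at -0.21 (standard error 0.089) and 0.11 (standard error 0.10).

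*Casp8*, an apoptotic caspase that can also cut interleukin 1 beta, was the listed gene with the smallest p in the lower direction in limma without the block. It had 618, 680 and 730 in WT and 520, 518 and 553 in KO cultures of mice 1, 2 and 3. Every KO array lay below every WT array, as for 4.65% of all probe sets. The difference was -0.35 (standard error 0.10, adjusted p = 0.692 from limma), and -0.40 without mouse 1. *Naip2*, the partner of NLRC4 that binds bacterial secretion system proteins, had 213, 285 and 299 in WT and 202, 215 and 223 in KO cultures, a difference of -0.30 (standard error 0.15, adjusted p = 0.712 from limma), and of -0.41 without mouse 1. It is 1 of several near-identical *Naip* genes whose probes may share signal. *Panx1*, a channel for ATP release, *Nlrp6*, a sensor of gut epithelium, and *Tnfaip3*, an inhibitor of NF-κB, were at 0.12, 0.15 and 0.11. *Il6*, a cytokine gene induced by NF-κB, was at -0.33 but had at most 11.2 on any array.

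**Figure D5:**
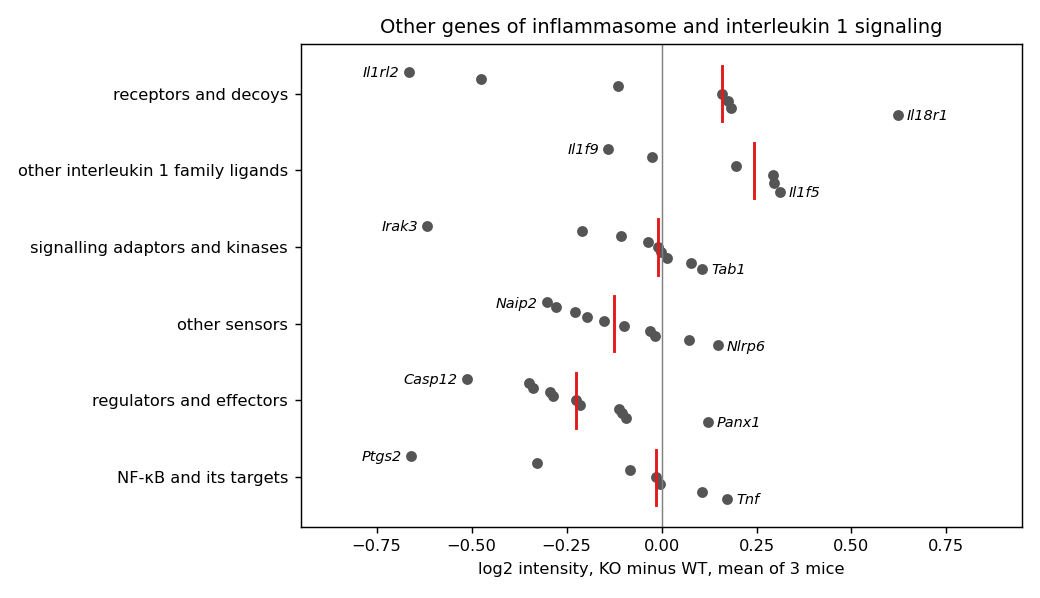
Mean log2 difference, KO minus WT, of 50 other genes of inflammasome and interleukin 1 signaling by role, with 1 point per gene, a red line at the median of the role and the lowest and highest gene named. The medians run from -0.22 (regulators and effectors) to 0.24 (other ligands), and *Irak3*, *Ptgs2*, *Il1rl2* and *Casp12* lie lowest. *Casp12* had at most 28.6 on any array.

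From this plot *Irak3* was taken after its values were seen. It encodes a macrophage inhibitor of interleukin 1 receptor signaling and had 70.0, 209 and 266 in WT and 53.1, 124 and 164 in KO cultures of mice 1, 2 and 3. The KO value was lower in each mouse, with differences of -0.40, -0.75 and -0.70, while mouse 1 was lowest in both groups, as for *Il1a*. The mean difference was -0.62 (standard error 0.61, adjusted p = 0.830 from limma), and -0.73 without mouse 1. With the mouse as a block its standard error was 0.11 (adjusted p = 0.284 from limma).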

How the data were processed

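Sorted pDCs of 3 WT and 3 KO cultures were measured on Affymetrix Mouse Gene 1.0 ST arrays. The authors deposited 1 linear intensity per array for each of 34760 probe sets, the lowest 3.07 and the highest 19106. Array medians lay between 69.0 and 72.9, but background correction, normalization and summary method are not given in the sources used here. Background signal that remains in dim values would compress folds.

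The log2 of each deposited intensity was used as it stood. Of the probe sets, the platform annotation gives 21640 a single symbol, 1321 more than 1 and 11799 no symbol. Only the first were tested, with limma (version 3.58.1, R version 4.3.3; lmFit, eBayes), which compared KO with WT in a two-sided test. Calls used a Benjamini-Hochberg adjusted p under 0.05, and the code was tested on simulated data. The labels pair the cultures by mouse. After group means were removed, WT and KO arrays of the same mouse correlated at 0.81, 0.51 and 0.67 over all probe sets for mice 1, 2 and 3, and mouse was added as a block in an alternative fit. Others were quantile normalization, median centering, arithmetic means, a filter at the median level, a floor at the 20th percentile, averaged probe sets, array weights, a trended robust fit, and each array or mouse left out. Arrays give no read depth, and 3 per group limit the precision.

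The members, lists and tests were chosen with earlier results of these data known. Named genes are the 10 members, per role of the pathway list the gene with the smallest p in each direction, the 3 brightest markers per cell type and the 5 genes most like *Nlrp3*. Others, among them *Cxcr2*, *Xcr1* and *Irak3*, were named outside this rule. Where a gene has several probe sets, the one with the highest mean was used. Promoters are the 250 bases before the outermost RefSeq start (GRCm38.p6).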

Additional observations from a re-analysis of the deposited data

How the results depend on the processing

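With the mouse as a replicate block, 0 of 21640 probe sets, 0 of the 9 partners and 0 of the 50 other pathway genes passed the adjusted p, as without it, so the block changed no call. The count over all probe sets was 4 with a floor at the 20th percentile (*Tcl1b2*, *Ccdc184*, *Acer2* and *B3gnt6*, none of them in the pathway) and ran from 0 to 108 with an array or a mouse left out, the 108 being without both arrays of mouse 1. For partners and pathway genes it was 0 under every alternative run. *Nlrp3* stayed between -0.93 and -0.65. The median of the partners was -0.47 with array weights and ran from -0.67 to 0.14 with an array or a mouse left out. The median of the pathway genes was -0.034 with the floor and -0.039 after quantile normalization, and -0.11 to -0.028 with an array or a mouse left out. *Casp4* was at -0.074 from arithmetic means and at -0.28 with array weights. With an array or a mouse left out, *Casp4* ran from -0.56 to 0.45, *Casp1* from -0.33 to 0.060, *Il18* from -0.67 to 0.34, *Il1a* from -1.50 to 0.41 and *Il1rn* from -1.31 to 0.51, in each case with the lowest value without the WT array of mouse 1. *Il1b*, *Nlrc4*, *Aim2* and *Pycard* kept their direction under every alternative in which they were tested. The filter on dim probe sets left out *Il1a* and *Nlrc4*. The cause of these shifts was not tested.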
